A study of Arabidopsis thaliana with 24 samples.

Results

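The difference between root and shoot in their response to 2 h of osmotic shock was measured in seedlings of Arabidopsis thaliana that the labels call µlox or ulox, a name they do not define. The response of an organ is the change from water to polyethylene glycol (PEG), and the quantity tested for each gene is the root response minus the shoot response. It rests on 12 of the 24 libraries of the series, 3 in each of 4 groups: root in water, root after 2 h of PEG, shoot in water and shoot after 2 h of PEG. Seedlings were 7 d old and had grown on Murashige and Skoog medium with 1% sucrose, at 21 °C under 16 h of light a day, with 8 h dark. Treatment was 1 h in water or 2 h in 30% PEG, a solution at -2.0 MPa, and 30 to 50 seedlings went into each biological replicate, A, B or C. Roots and shoots were cut apart after the treatment, and every group shares the same line, so there is no wild type to set beside it. Libraries were made by MARS-seq, which counts the 3′ ends of transcripts. The source names give 1 h for the water libraries, and the titles code 0 h. PEG at 2 h and its control therefore also differ, in each organ, in clock time and in the length of the treatment. How far the shoots were immersed is not given in the sources used here.

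Large PEG molecules stay outside cells and draw water from them, which mimics drought. Plants answer water deficit through abscisic acid, a hormone whose receptors of the PYL family hold back clade A PP2C phosphatases and so release SnRK2 kinases, and through CBF and DREB transcription factors, which act largely without the hormone. Both branches switch on genes for protective hydrophilic proteins such as RD29A, and NAC, ERF and zinc-finger factors take part in the same response. The lists of such genes used below were written from general knowledge, with earlier results of these data known. Their counts and medians therefore describe these data and are no independent test.

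Root libraries varied more than shoot libraries, which bears on every value below. Over the 12 libraries total counts ran from 1610558 to 7029587, and the biological coefficient of variation was 34.5% over the 6 root libraries and 15.7% over the 6 shoot libraries. The organ labels held: the share of counts of 41 photosynthesis genes was 26.4 to 31.5% in shoot against 0.234 to 0.461% in root. CASP1, of the endodermal Casparian strip, stood at 451 ± 163 CPM (counts scaled to library size) in root and 6.61 ± 1.77 in shoot in water. In bulk samples like these, fewer cells of a type and less RNA per cell cannot be told apart. A root library in water (replicate B) and a root library after PEG (replicate A) stood apart. Their deviations from their own group means ran together (r = 0.70 over 4641 genes). So did those of root PEG C with root water A and C (r = 0.71 and 0.66). Root water B ran against the other 2 libraries of its group (r = -0.88 and -0.90). Deviations within a group of 3 are negatively related by construction. Root water B and root PEG A had 11638 and 12754 genes with a count, against 12684 to 14012 in the other 4 root libraries. Mitochondrial codes took 6.96% and 5.24% of their counts, against 2.73 to 5.24%. On both measures root PEG A lay within the range of the other 4. Counts of calls for the difference and for each organ are given with and without this pair, an alternative chosen after seeing the data; counts by class and by list are given with it.

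The response differed between organs in 132 of 10967 genes tested (1.2%). The signed root change lay below the shoot change in 105 (0.957%), called lower here, and above it in 27 (0.246%), called higher. Calls are at an adjusted p under 0.05 in edgeR's quasi-likelihood test, adjusted by Benjamini-Hochberg, and 883 genes had an unadjusted p under 0.05. Without the pair of libraries that stood apart 128 genes were called, 99 lower and 29 higher, and 99 of the 132 remained. With library totals in place of TMM scaling (trimmed mean of M values) the split was 81 lower and 37 higher, the higher share going from 20.5 to 31.4%, and the median difference of all genes from 0.06 to 0.19. With root and shoot libraries of 1 treatment and letter as a block, another alternative added after seeing the data, the count was 64, and all of them were among the 132. With the 12 libraries fitted alone it was 77, of which 74 were among the 132. Leaving out 1 library moved the count by over 1.5 times for 8 of the 12: to 64 without shoot water A, 70 without shoot water B, 82, 85 and 76 without shoot PEG A, B or C, 78 without root water A, and 83 and 85 without root PEG B or C. The lower genes stayed the more numerous in each of these fits, and 46 of the 132 were called under every alternative that tested them.

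Most of these genes were called in shoot and not called in root. Of the 105 lower genes, 98 rose in shoot and were not called in root, with medians of 1.93 in shoot and -0.18 in root on the log2 scale. In level, 57 of the 105 were called higher in root than in shoot in water and 13 lower, where 27.1% and 26.2% of all genes tested were (53.3% in all). After PEG 9 were called higher in root and 72 lower, against 28.6% and 26.7% of all genes (55.2% in all). The same libraries chose the 105 genes, so a tilt to root in water and to shoot after PEG is partly built in. A further 3 rose in both organs, and the root change over all 105 lay above 0 in 41 and below 0 in 64. Of the 27 higher genes, 18 fell in shoot and were not called in root (medians -1.99 and 0.05), 6 were called in neither organ, and 3 rose in root alone. These classes use the same libraries as the difference itself, so they describe it and do not test it again. Where water and PEG libraries are said below not to overlap, 13.5% of all genes tested had no overlap in root and 23.0% in shoot. Of the 105 lower genes 32 had no overlap in root and 103 in shoot, and of the 27 higher genes 12 and 25. The root change lay between -0.5 and 0.5 in 57 of the 105 and 14 of the 27, so root was not flat for many of them. In separate contrasts of the same fit, 554 genes (5.05%) were called in shoot and 100 (0.912%) in root. The root count depended on the fit: it was 57 without the pair of libraries that stood apart (714 in shoot), 177 with DESeq2's Wald test and 28 when each group was given its own weight (limma-voom), which gave 984 in shoot. A gene not called in root is not shown to be unresponsive there: the median standard error of a root change was 0.38, that of a shoot change 0.38 and that of the difference 0.56. The fit shares 1 spread per gene over organs, and with a weight for each group 116 differences were called. Of the lower genes 18 and of the higher genes 7 overlap another annotated gene, and the strand used in counting is not given in the sources used here, so reads of such partners cannot be told apart. Among genes described below these are ABI1, P5CS1, ATAF1, FKF1, LUX, APR1, APR3, CYP81D11, AT2G39980, AT2G44130, ERF105, ZF3, HRE1, ENODL8, AT3G50800, AT5G01015 and AT2G36145.

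**Figure D1:**
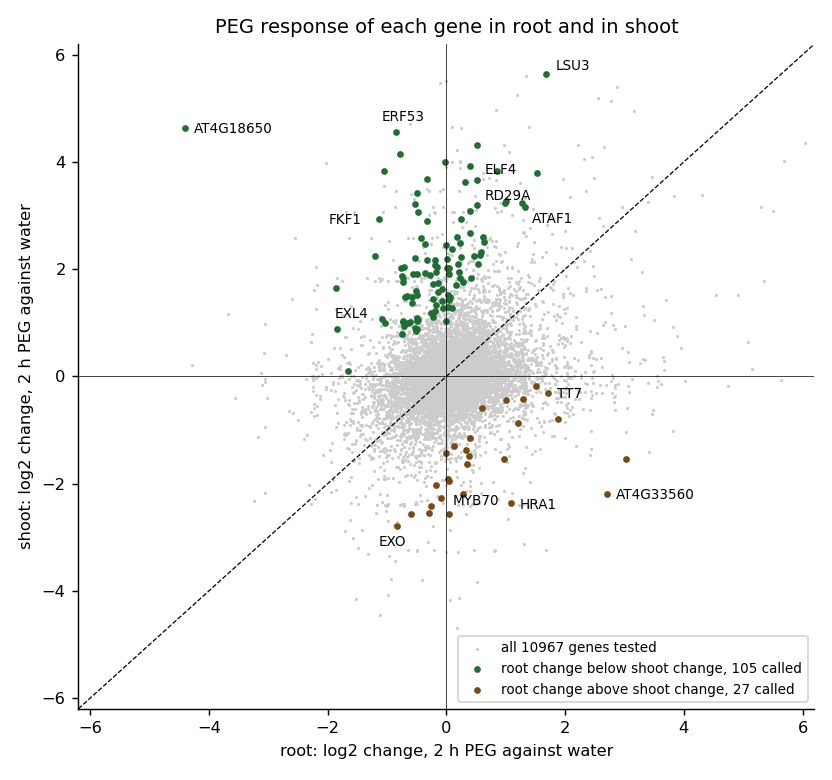
Log2 change after 2 h of PEG against water in root (horizontal axis) and shoot (vertical axis) for each gene tested, with the 105 genes whose root change was lower in green, the 27 whose root change was higher in brown, and equal change on the dashed line; 4 genes lie outside the axes. The green genes form a band near 0 in root and above 0 in shoot, and AT4G18650 stands alone at the upper left.

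**Figure D2:**
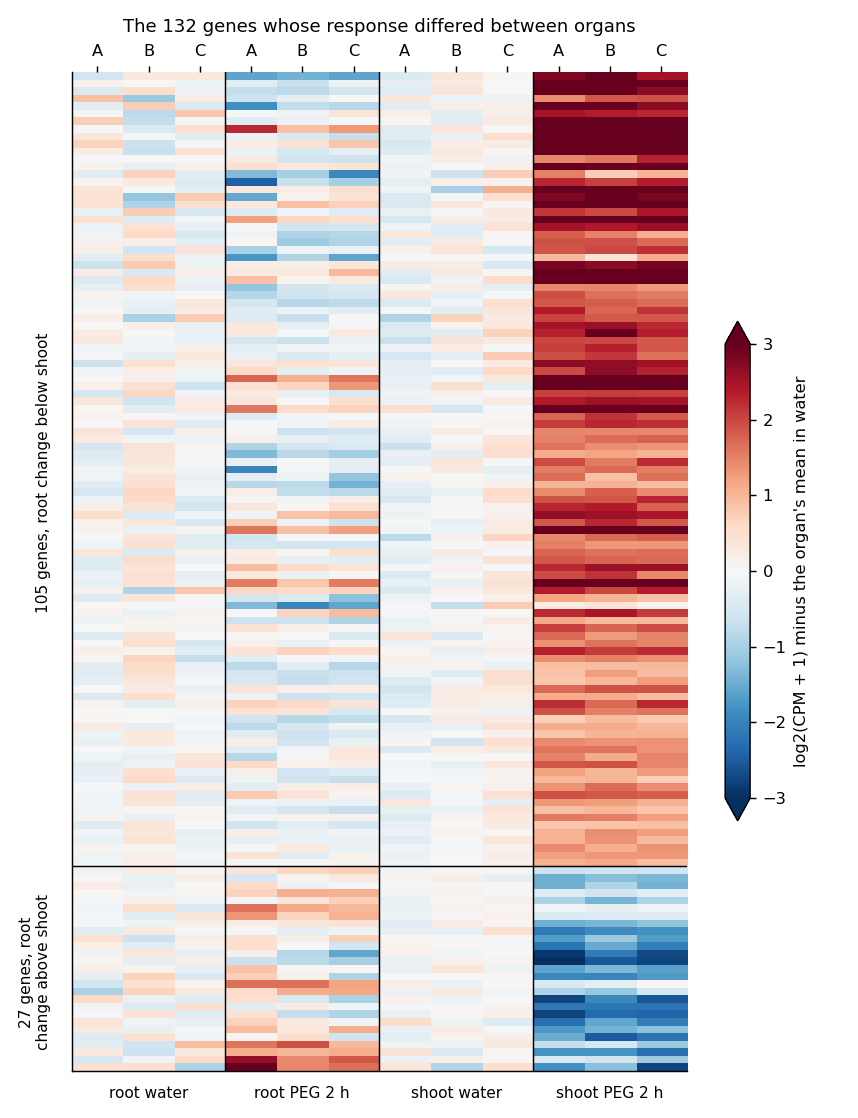
Level of the 132 called genes (rows, ordered by their difference) in each of the 12 libraries (columns), as log2(CPM + 1) minus the mean of the same organ in water; colours saturate at 3. The 3 shoot PEG columns are alike. In root the PEG columns stay near the water columns for many of the 105 genes, of which 57 had a root change between -0.5 and 0.5. Root water B and root PEG A are uneven beside their neighbours.

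Several transcription factors of the DREB, ERF and NAC families rose in shoot with a lower change in root. ERF53, a drought-induced factor of the DREB group, stood at 1.49, 1.30 and 1.06 CPM in the root water libraries A, B and C and at 0.822, 0.443 and 1.04 in the root PEG libraries. In shoot it went from 2.12, 3.41 and 2.76 to 69.7, 66.3 and 56.9. Shoot libraries in PEG were all above those in water, while every root library stayed below 2 CPM, and the difference was log2 -5.40, SE 0.84, adjusted p = 0.000567. RAP2.6, an ERF factor known from abscisic acid and wound responses, stood at 90.6, 32.4 and 52.1 in root in water and 41.5, 47.2 and 52.3 in PEG, and went from 2.96, 2.04 and 3.55 to 39.4, 44.5 and 30.8 in shoot. Root held the gene at a level in water that shoot reached after PEG, and the difference was log2 -4.01, SE 0.60, adjusted p = 0.000465. RAP2.1, a DREB-type repressor, went from 10.2, 8.17 and 13.4 to 57.8, 36.7 and 50.4 in shoot, against 23.7, 19.5 and 28.2 in water and 18.1, 20.6 and 18.4 in PEG in root. RAP2.1 differed by log2 -2.49 (SE 0.37, adjusted p = 0.000409). CBF1, a cold and drought activator, rose in shoot from 13.8 ± 6.56 to 85.5 ± 28.4 and stood at 22.4 ± 3.39 in water and 25.6 ± 3.46 in PEG in root. CBF1 differed by log2 -2.43 (SE 0.45, adjusted p = 0.00406). Some reads may be shared among CBF1, CBF2 and CBF3, which are close relatives.

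Of 10 CBF and DREB genes tested, 3 were lower in root response, 0 higher and 7 not called, with a median difference of -2.16 against 0.06 over all genes. ERF53, RAP2.1 and CBF1 are the 3. CBF3 was called upward in both organs, at log2 2.56 in root and 5.20 in shoot, and its difference was not called (log2 -2.64, SE 0.77, adjusted p = 0.125). RAP2.4, another DREB-group factor, was likewise called upward in both, from 192 ± 34.4 to 414 ± 125 in root and from 123 ± 14.1 to 501 ± 40.7 in shoot (difference log2 -0.91, SE 0.30, adjusted p = 0.221). The list therefore held members that moved in both organs beside members that moved in shoot.

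NAC factors of stress responses showed the same split. Of 6 tested, 3 were lower, 0 higher and 3 not called (median -1.79), and all 6 rose in shoot while 2 rose in root. NAC032, of stress and senescence, stood in root at 50.5, 99.9 and 59.5 in water and 124, 71.6 and 81.7 in PEG, overlapping, and went in shoot from 8.89, 11.6 and 19.0 to 103, 121 and 113 without overlap. NAC032 differed by log2 -2.67 (SE 0.49, adjusted p = 0.00362). ATAF1, of the abscisic acid and drought response, rose in both organs, from 144, 234 and 151 to 505, 306 and 514 in root and from 76.6, 77 and 119.7 to 788, 884 and 786 in shoot, so here the difference (log2 -1.84, SE 0.44, adjusted p = 0.032) is one of size. The ATAF1 call was lost in 11 of 23 alternatives, among them library totals in place of TMM and the fit without the pair of libraries that stood apart (log2 -1.67, adjusted p = 0.0662). ANAC055 (NAC3), of jasmonate and abscisic acid responses, had at most 2 CPM in any root library and rose in shoot from 2.25 ± 0.852 to 44.8 ± 3.00 (difference log2 -3.80, SE 0.93, adjusted p = 0.0367); its call was lost in 16 of 22 alternatives. RD26, a NAC activator of abscisic acid signalling, was called upward in both organs, at log2 2.32 and 4.05, with the difference not called (log2 -1.73, SE 0.49, adjusted p = 0.111). Among zinc-finger factors ZAT6 alone of 8 was called, standing at 215, 253 and 146 in root in water and 327, 177 and 129 in PEG, and going from 38.9, 32.7 and 46.6 to 144, 192 and 145 in shoot (difference log2 -1.98, SE 0.42, adjusted p = 0.0131); the call was lost in 7 of 23 alternatives.

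**Figure D3:**
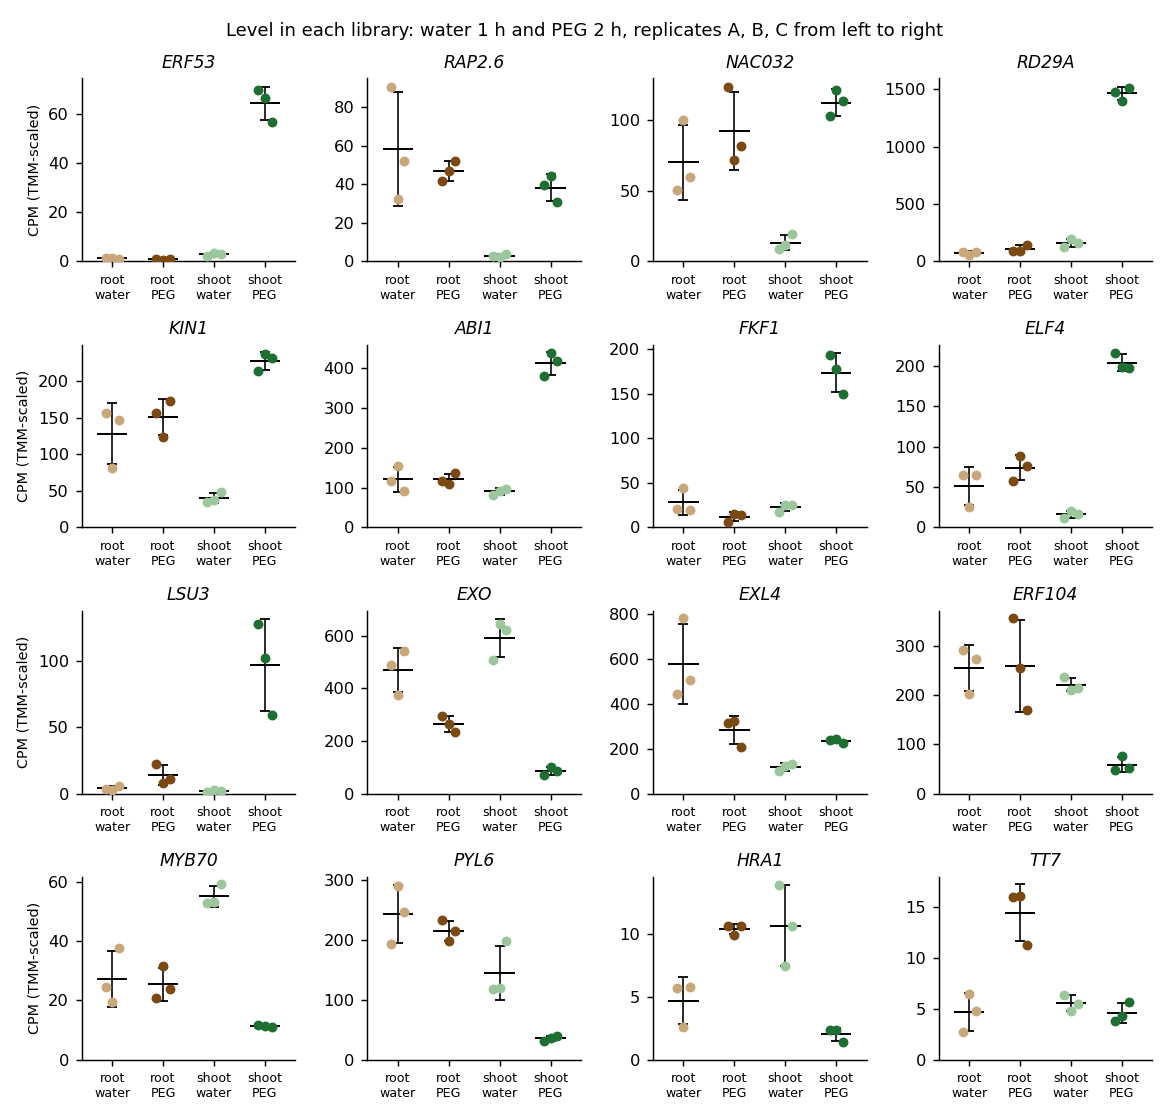
Level of 16 genes in each library of the 4 groups, in TMM-scaled CPM on linear axes from 0; points are replicates A, B and C, the long bar is the mean and the error bar the SD (n = 3). In the panels of ERF53, RD29A, ABI1, FKF1 and ELF4 the shoot PEG points stand clear of the other 9, and in those of ERF104, MYB70 and PYL6 they are the lowest.

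Genes for protective proteins rose in shoot with no call in root. RD29A (LTI78), a hydrophilic stress protein, stood in root at 84.2, 53.9 and 84.0 CPM in water and 85.5, 89.6 and 143 in PEG. In shoot it stood at 126, 193 and 163 in water and 1476, 1402 and 1516 in PEG. The root groups lie close together with the PEG libraries at the upper side, the shoot groups do not overlap, and the difference was log2 -2.68, SE 0.46, adjusted p = 0.00164. KIN1, a small cold- and drought-induced protein, was the more abundant in root in water, at 157, 81.1 and 147 against 35.1, 37.5 and 48.2 in shoot. After PEG it stood at 156, 124 and 173 in root and 213, 237 and 231 in shoot, so shoot overtook root. KIN1 differed by log2 -2.26 (SE 0.36, adjusted p = 0.000863). KIN2 is a near-identical copy with which it may share reads. ERD7, a senescence- and dehydration-associated protein, went from 190.5 ± 9.34 to 114 ± 10.2 in root and from 150.0 ± 40.1 to 259 ± 22.7 in shoot (difference log2 -1.53, SE 0.27, adjusted p = 0.00293), and LEA14, a late embryogenesis abundant protein, from 538 ± 63.0 to 555 ± 42.6 and from 256 ± 61.0 to 686 ± 88.7. LEA14 differed by log2 -1.38 (SE 0.31, adjusted p = 0.0193). The LEA14 call was lost in 13 of 23 alternatives, the other 3 in none.

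These 4 are the called members among 18 dehydration proteins, with 0 higher and 14 not called. The list's median difference was -1.31, or -1.18 without COR15A and COR15B, which had 3 counts or fewer in both root groups and for which a root change cannot be given. In shoot 9 of the 18 rose and 1 fell, and in root 0 were called. COR47, a dehydrin, was abundant in both organs and its difference was not called (log2 -1.24, SE 0.44, adjusted p = 0.294), as was RD22, a drought-induced cell wall protein, whose level changed little in either organ (log2 -0.03 in root and 0.02 in shoot, difference log2 -0.06, SE 0.37, adjusted p = 1).

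Within abscisic acid signalling, a phosphatase and a receptor differed in opposite senses. ABI1, a clade A phosphatase that holds the pathway back, stood at 116, 155 and 90.9 in root in water and 116, 109 and 137 in PEG, ranges that overlap. In shoot ABI1 went from 81.7, 92.6 and 97.5 to 381, 438 and 420.0. ABI1 differed by log2 -2.18 (SE 0.31, adjusted p = 0.000317). PYL6, a receptor of the hormone, stood at 192, 289 and 246 in water and 232, 197 and 214 in PEG in root and went from 118, 119.9 and 197 down to 31.5, 36.7 and 39.4 in shoot. PYL6 differed by log2 1.85 (SE 0.40, adjusted p = 0.0152). Shoot PEG libraries held the lowest PYL6 levels of all 12. ABI1 was 1 of 7 phosphatases called lower, with 6 not called (median -1.08) and 4 rising in shoot, and PYL6 was 1 of 8 receptors called higher, with 7 not called (median 0.96) and 3 falling in shoot. ABI2, the closest relative of ABI1, stood just outside the threshold (difference log2 -1.95, SE 0.51, adjusted p = 0.0659), as did the receptor PYL1 (difference log2 1.29, SE 0.34, adjusted p = 0.0659). Synthesis and breakdown genes had 0 of 7 called, and NCED3, which makes the precursor of the hormone, was called upward in both organs, from 1.53 ± 0.624 to 13.9 ± 8.6 in root and from 1.75 ± 1.44 to 17.0 ± 1.51 in shoot (difference log2 -0.21, SE 0.71, adjusted p = 0.999). SnRK2 kinases and ABF factors had 0 of 6 called (median -0.98), and 4 HD-Zip factors of abscisic acid responses had 0 called, a list that leaves out HAT1, an HD-Zip gene called higher (lost in 11 of 23 alternatives). Among compatible-solute genes 1 of 7 was called, P5CS1, the first enzyme of proline synthesis, which stood at 39.6, 48.0 and 34.0 in water and 52.6, 44.4 and 46.0 in PEG in root and went from 15.2, 27.2 and 28.4 to 76.6, 88.1 and 88.0 in shoot. P5CS1 differed by log2 -1.60 (SE 0.32, adjusted p = 0.00801). GOLS3, of raffinose synthesis, stood just outside the threshold (difference log2 -2.88, SE 0.73, adjusted p = 0.0515) and was called without the pair of libraries that stood apart. HVA22D, a drought- and abscisic acid-induced membrane protein picked after its values were seen, had one of the 2 smallest adjusted p-values of all genes, at 160.2 ± 43.5 in water and 125 ± 29.0 in PEG in root and 64.2 ± 18.7 in water and 356 ± 19.7 in PEG in shoot. HVA22D differed by log2 -2.83 (SE 0.32, adjusted p = 3.24e-05).

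Evening-phased clock genes rose in shoot. FKF1, a blue-light receptor of the photoperiod pathway, stood in root at 20.9, 44.1 and 19.1 in water and 6.58, 15.2 and 14.3 in PEG, and in shoot at 17.8, 25.2 and 25.3 in water and 193, 178 and 149.5 in PEG. The organs were alike in water and far apart after PEG. FKF1 differed by log2 -4.07 (SE 0.55, adjusted p = 0.000211). ELF4, of the evening complex, went from 64.2, 24.7 and 65.4 to 57.5, 88.5 and 76.2 in root and from 11.4, 20.4 and 17.0 to 216, 199 and 197 in shoot, the root groups overlapping and the shoot groups not. ELF4 differed by log2 -3.15 (SE 0.42, adjusted p = 0.000184). LUX (PCL1), a DNA-binding partner of ELF4, stood at 70.0 ± 3.42 in water and 70.7 ± 16.8 in PEG in root and rose from 74.9 ± 17.9 to 215 ± 22.5 in shoot. LUX differed by log2 -1.50 (SE 0.29, adjusted p = 0.00632). PRR5, a clock repressor, stood at 7.43 ± 2.90 in water and 11.6 ± 4.41 in PEG in root and rose from 24.2 ± 2.46 to 146 ± 10.3 in shoot. PRR5 differed by log2 -1.98 (SE 0.40, adjusted p = 0.00932). These are the 4 called of 14 clock genes tested, all lower, with 0 higher and 10 not called (median -1.16), while 7 rose in shoot and 0 in root. GI, another evening gene, had a difference in the same direction that was not called (difference log2 -1.13, SE 0.31, adjusted p = 0.0912), and the morning gene CCA1 one in the other direction, also not called (difference log2 0.74, SE 0.79, adjusted p = 0.946). In the 2 h comparison of an organ with its water libraries, time of day and PEG cannot be told apart. Both organs shared the sampling times, and whether time of day acted alike in them was not tested. At 1 h of PEG FKF1 stood in shoot at 122 ± 14.7 against 22.8 ± 4.31 in water. Source names give 1 h for those water libraries too, but the titles code 0 h, so the times may differ there as well.

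Sulfur deficiency genes rose in shoot, and some rose in root too. LSU3, a small protein induced by sulfur deficiency, went from 3.74, 2.6 and 5.85 to 22.6, 8.08 and 10.8 in root and from 1.27, 2.72 and 1.97 to 128, 102 and 59.4 in shoot. Root PEG libraries were all above root water libraries, where 13.5% of all genes tested had no overlap in root. The root change was not called (log2 1.68, adjusted p = 0.118), and the difference was log2 -3.96, SE 0.79, adjusted p = 0.00801. APR3, an enzyme of sulfate reduction, was called upward in both organs, from 43.1, 34.4 and 42.5 to 123, 74.6 and 94.6 in root and from 22, 21.1 and 27.6 to 247, 194 and 232 in shoot. APR3 differed by log2 -1.97 (SE 0.42, adjusted p = 0.0135). APR1, a second such reductase, went from 33 ± 7.32 to 66.3 ± 28.1 in root and from 9.44 ± 3.51 to 91.1 ± 13.1 in shoot. APR1 differed by log2 -2.25 (SE 0.50, adjusted p = 0.0187). Of 9 sulfur genes tested 3 were lower, 0 higher and 6 not called (median -1.97), with 8 rising in shoot and 3 in root. LSU2, called upward in both organs, was not called for the difference (log2 -1.63, SE 0.81, adjusted p = 0.647). The calls of APR1 and APR3 were lost in 8 and 5 of 23 alternatives.

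**Figure D4:**
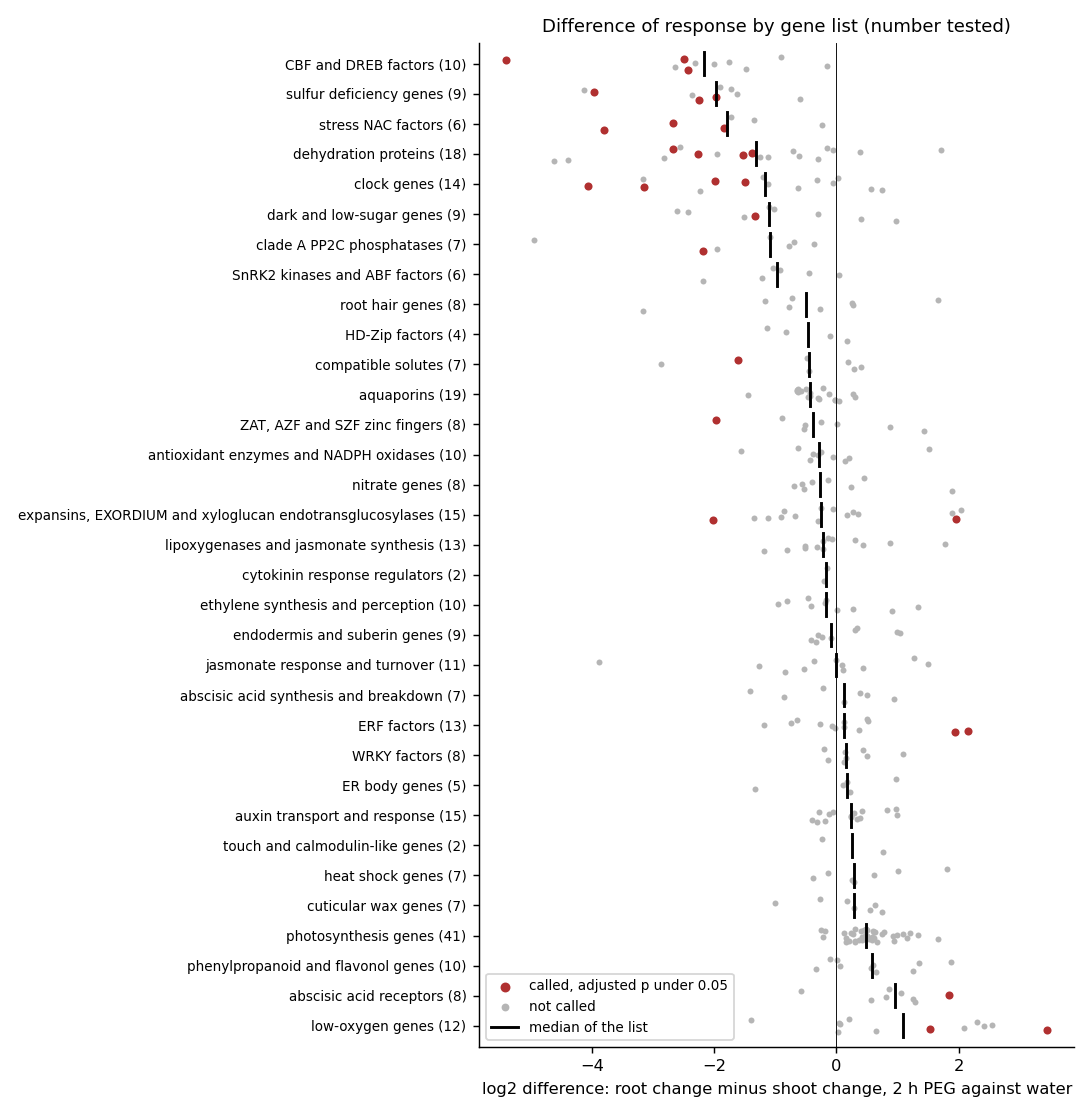
Log2 difference (root change minus shoot change) of each gene tested in 33 lists, with the number tested in brackets, called genes in red and the list median as a black bar. Medians run from -2.16 for CBF and DREB factors to 1.09 for low-oxygen genes, and most genes of most lists are grey.

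Outside the lists, many of the largest differences were also led by a rise in shoot. AT4G25433, a LysM domain protein, went from 8.22, 16.9 and 10.6 to 6.58, 6.2 and 7.42 CPM in root and from 0.423, 1.36 and 0.790 to 15.0, 18.7 and 10.7 in shoot. AT4G25433 differed by log2 -4.93 (SE 0.73, adjusted p = 0.000426). AT1G68500, uncharacterised, stood at 29.0 ± 7.33 in water and 21.1 ± 3.86 in PEG in root and rose from 25.7 ± 8.91 to 276 ± 24.9 in shoot. AT1G68500 differed by log2 -3.91 (SE 0.60, adjusted p = 0.000567). AT1G51090, a heavy metal-associated domain protein, had one of the 2 smallest adjusted p-values of all genes, at 7.97, 3.89 and 9.57 in water and 5.75, 4.43 and 5.35 in PEG in root and 11.9, 19.8 and 16.2 in water and 131, 162 and 146 in PEG in shoot. AT1G51090 differed by log2 -3.75 (SE 0.43, adjusted p = 3.24e-05). Root levels of AT1G51090 stayed under 10 CPM in all 6 libraries, and its shoot groups did not overlap. CYP81D11, a stress-induced cytochrome P450, was higher in root than in shoot in water and lower after PEG: 10.2 ± 1.52 in water and 13.6 ± 0.774 in PEG in root, 2.04 ± 0.338 in water and 31.2 ± 8.63 in PEG in shoot. CYP81D11 differed by log2 -3.53 (SE 0.48, adjusted p = 0.000184). AT1G49450, a WD40 repeat protein, showed the same crossing, at 10.5 ± 2.93 in water and 13.4 ± 1.66 in PEG in root and 1.34 ± 1.64 in water and 19.1 ± 2.86 in PEG in shoot. AT1G49450 differed by log2 -3.30 (SE 0.64, adjusted p = 0.00634). AT2G39980, an acyl-transferase family gene, went in opposite directions without a call in root, from 36.4, 41.5 and 25 to 5.34, 20.9 and 16.3 there and from 38.1, 51.1 and 50.6 to 229.7, 195 and 239.7 in shoot. AT2G39980 differed by log2 -3.45 (SE 0.46, adjusted p = 0.000184). AT1G11210 stood at 34.1, 11 and 45.2 in water and 8.22, 27.5 and 34.7 in PEG in root and rose from 22.4 ± 7.46 to 168 ± 19.1 in shoot. AT1G11210 differed by log2 -3.23 (SE 0.55, adjusted p = 0.0018). From the lists, with a smaller difference, DRM1 (DYL1), a dormancy-associated gene and the only one of 9 dark and low-sugar genes called, stood at 354 ± 93.1 in water and 302 ± 5.21 in PEG in root and rose from 183 ± 42.6 to 393 ± 57.1 in shoot. DRM1 differed by log2 -1.33 (SE 0.33, adjusted p = 0.0468). That call was lost in 19 of 23 alternatives, among them the fit without the pair of libraries that stood apart (adjusted p = 0.219).

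A single gene, AT4G18650, annotated as a transcription factor-like protein, was called in opposite directions in the 2 organs, and it rests on few reads. In root it had 0.996, 2.6 and 2.66 CPM in water and 0, 0.111 and 0 in PEG, and in shoot 0, 0.681 and 0.395 in water and 8.29, 11.7 and 6.44 in PEG. In root it had 13 counts in water and 1 in PEG, a ratio of PEG to water of 0.0314 with a 95% exact counting interval of 0.00074 to 0.209. In shoot it had 2 counts in water and 94 in PEG, a ratio of 27.4 (7.38 to 230). These intervals cover counting error alone. The call was kept in each of the 22 alternatives that tested the gene. AT1G07985, uncharacterised, also rested on 2 counts in shoot in water against 61 in PEG, a ratio of 17.8 (4.72 to 150.2), with 9.46, 5.19 and 18.1 CPM in root in water and 9.87, 8.97 and 13.4 in PEG. AT2G43590, a chitinase family gene, was the only called gene that fell in root and was not called in shoot, from 84.5 ± 2.69 to 27.2 ± 6.01 in root against 35.1 ± 18.5 in water and 38.3 ± 4.46 in PEG in shoot (difference log2 -1.75, SE 0.42, adjusted p = 0.0347), and the call was lost in 13 of 23 alternatives. AT2G44130, a kelch repeat protein, rose in both organs and by more in shoot, from 25.5 ± 2.53 to 73.7 ± 17.3 and from 8.18 ± 1.85 to 115 ± 11.4. AT2G44130 differed by log2 -2.27 (SE 0.37, adjusted p = 0.00111).

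Genes whose root response lay above the shoot response were mostly genes that fell in shoot, among them growth and early-response genes. EXO, a cell wall-associated protein of brassinosteroid-promoted growth, stood in root at 489, 376 and 543 in water and 294, 266 and 233 in PEG, and in shoot at 509, 646 and 622 in water and 69.9, 100.2 and 86.2 in PEG. Levels were lower in PEG in both organs with no overlap, the root change was not called (log2 -0.83, adjusted p = 0.105), and the difference was log2 1.97, SE 0.34, adjusted p = 0.0018. EXL4, of the same family, went the other way in shoot: 445, 779 and 504 in water and 316, 322 and 209 in PEG in root, 99.0, 125 and 132 in water and 239, 242 and 225 in PEG in shoot. EXL4 differed by log2 -2.02 (SE 0.38, adjusted p = 0.00406). EXL5, another member picked after its values were seen, stood at 95.4 ± 10.7 in water and 119.8 ± 8.69 in PEG in root and fell from 242 ± 45.8 to 93.2 ± 8.28 in shoot. EXL5 differed by log2 1.71 (SE 0.30, adjusted p = 0.00247). Of the 15 expansin, EXORDIUM and xyloglucan endotransglucosylase genes tested, EXO was the 1 called higher and EXL4 the 1 called lower; EXL5 is not on that list.

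ERF104, an ethylene response factor of early defence, stood at 292, 202 and 273 in root in water and 357, 256 and 169.9 in PEG, and fell in shoot from 237, 212 and 216 to 47.9, 76.4 and 52.6. ERF104 differed by log2 1.94 (SE 0.36, adjusted p = 0.00406). ERF105, its close relative, stood at 303, 173 and 152 in water and 282, 146 and 102 in PEG in root and fell from 231, 190.1 and 211 to 30.3, 54.6 and 34.7 in shoot. ERF105 differed by log2 2.16 (SE 0.46, adjusted p = 0.0152). Root groups overlapped for both genes, and the ERF105 call was lost in 5 of 23 alternatives, among them the fit without the pair of libraries that stood apart (log2 1.59, adjusted p = 0.0846). They are the 2 called of 13 ERF genes tested, both higher (median 0.13). That list leaves out other ERF-family genes, of which RAP2.6, Rap2.6L and ERF9 were called lower, ERF9 losing its call in 19 of 23 alternatives. MYB70, a MYB factor, was flat in root, at 24.4, 19.5 and 37.7 in water and 21.0, 31.4 and 23.8 in PEG, and fell in shoot from 52.9, 53.1 and 59.2 to 11.7, 11.3 and 11.1. MYB70 differed by log2 2.19 (SE 0.37, adjusted p = 0.00125). ZF3, a zinc-finger protein, stood at 121 ± 31.2 in water and 99.6 ± 55.3 in PEG in root and fell from 159 ± 21.9 to 27.2 ± 4.31 in shoot. ZF3 differed by log2 2.26 (SE 0.50, adjusted p = 0.021), a call lost in 6 of 23 alternatives. YUC5, a flavin monooxygenase of auxin synthesis, stood at 18.7 ± 2.89 in water and 24.3 ± 8.88 in PEG in root and fell from 24.6 ± 5.86 to 7.84 ± 0.988 in shoot. YUC5 differed by log2 1.98 (SE 0.40, adjusted p = 0.00801). AT3G50800, uncharacterised, and ENODL8, an early nodulin-like protein, followed the same course (difference log2 2.47, SE 0.50, adjusted p = 0.00827 and difference log2 2.00, SE 0.51, adjusted p = 0.0493), the second losing its call in 13 of 23 alternatives.

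A pair of low-oxygen regulators had the higher response in root. HRA1, a repressor of the low-oxygen response, stood in root at 5.73, 2.6 and 5.85 in water and 10.7, 9.97 and 10.7 in PEG, and in shoot at 14, 7.49 and 10.7 in water and 2.34, 2.34 and 1.43 in PEG. PEG libraries were above water libraries in root and below them in shoot, in each case without overlap, although the root change alone was not called (log2 1.08, adjusted p = 0.223); the difference was log2 3.45, SE 0.57, adjusted p = 0.00111. HRE1 (ERF73), an ethylene response factor of low oxygen, stood at 33.4, 38.3 and 31.4 in water and 32.5, 44.8 and 57.2 in PEG in root and fell from 19.0, 23.2 and 24.5 to 11, 7.80 and 11.1 in shoot (difference log2 1.54, SE 0.37, adjusted p = 0.0356), with the call lost in 14 of 23 alternatives. Of 12 low-oxygen genes 2 were higher, 0 lower and 10 not called (median 1.09, with 0 called in root). The fermentation enzyme ADH1 was called in neither organ (log2 2.15 in root and 2.13 in shoot, difference log2 0.02, SE 1.18, adjusted p = 1). With that standard error, a difference between the organs was neither shown nor excluded.

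A few genes rose in root. TT7, a flavonoid hydroxylase, rose in root from 2.74, 6.49 and 4.78 to 16.0, 16.2 and 11.3 and stood at 6.35, 4.77 and 5.53 in water and 3.78, 4.29 and 5.72 in PEG in shoot (difference log2 2.02, SE 0.49, adjusted p = 0.0382); its call was lost in 14 of 23 alternatives. FLS1, a flavonol synthase of the same pathway, rose in root from 35.3 ± 8.49 to 125 ± 28.9, but its difference was not called (log2 1.36, SE 0.45, adjusted p = 0.23). Nor was that of any other of the 10 phenylpropanoid and flavonol genes tested (median 0.59), a list that leaves out TT7. AT4G33560, a wound-responsive family gene whose root change was not called, had the largest positive difference (log2 4.89, SE 1.22, adjusted p = 0.0476) and was among the least stable. Root libraries went from 4.48, 4.54 and 1.06 to 50.1, 9.86 and 11.6, with replicate A, a library that stood apart, the highest, and shoot libraries from 23.7, 9.54 and 26.5 to 4.50, 7.02 and 1.79. Without the pair of libraries that stood apart the adjusted p was 0.307, and the call was lost in 16 of 23 alternatives. HKT1, a sodium transporter, had few reads and was called upward in root alone (log2 3.02; difference log2 4.56, SE 1.13, adjusted p = 0.0416), a difference lost in 15 of 22 alternatives, among them the fit without that pair (adjusted p = 0.108).

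Among the 27 higher genes 3 stood in root at a mean level under 10% of that in shoot, and the level of shoot marker genes in root is given beside them. AT5G01015, uncharacterised, went from 0.996, 0.649 and 3.72 to 6.58, 8.30 and 3.86 in root and from 59.7, 57.9 and 79.8 to 39.6, 44.8 and 29.7 in shoot (difference log2 2.68, SE 0.58, adjusted p = 0.0153), its root level going from 2.72 to 16.4% of the shoot level. AT2G36145, uncharacterised, went from 1.02 to 3.29% and CAX1, a vacuolar calcium exchanger, from 4.26 to 14.7%. Photosynthesis genes, as markers of shoot tissue, went from a median of 0.536 to 0.823% of their shoot level, and took 0.461% of counts in root PEG A against 0.234 to 0.303% in the other 5 root libraries, with from 0 to 3 of the 41 at 0. The part of shoot RNA in these 3 results was not tested. AT1G75960, an AMP-dependent synthetase family gene, stood at 3.78 ± 2.33 in water and 7.42 ± 1.80 in PEG in root and 41.1 ± 6.97 in water and 22.4 ± 5.05 in PEG in shoot (difference log2 2.08, SE 0.50, adjusted p = 0.0336), and AT2G20835, uncharacterised, at 1.71 ± 0.482 in water and 3.73 ± 1.26 in PEG and at 32.4 ± 5.37 in water and 11.2 ± 2.12 in PEG. AT2G20835 differed by log2 2.51 (SE 0.57, adjusted p = 0.0212). AT1G70990, a proline-rich family gene, was the reverse in level, at 33.4 ± 10.3 in water and 33.9 ± 12.5 in PEG in root and falling from 6.96 ± 1.28 to 0.969 ± 0.739 in shoot. AT1G70990 differed by log2 2.62 (SE 0.63, adjusted p = 0.0356). Calls were lost in 10 of 23 alternatives for AT1G75960, 11 of 22 for AT1G70990 and for CAX1, 8 of 22 for AT2G20835, 6 for AT2G36145 and 4 for AT5G01015.

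Beneath the called differences the organs shared a direction in many genes. Over all genes tested the median change was 0.06 in root and -0.01 in shoot, so a shared sign alone is common in any set. Of the 401 genes that rose in shoot (3.66% of those tested), 291 (72.6%) had a root change above 0, with median changes of 1.62 in shoot and 0.38 in root, and 30 were called upward in root too. Of the 153 that fell in shoot (1.4%), 119 (77.8%) had a root change below 0, with medians of -1.37 and -0.39, and 7 were called. Of the 53 that rose in root (0.483%), 48 had a shoot change above 0, with medians of 1.80 in root and 1.62 in shoot. Of the 47 that fell in root (0.429%), 42 had a shoot change below 0, 7 of the 47 having 3 counts or fewer in both shoot groups. Over all genes, root and shoot changes correlated at r = 0.26, across genes that are not independent replicates.

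Genes called in both organs in the same direction numbered 37, 30 upward and 7 downward. AT3G59940, a kelch repeat F-box protein gene, rose from 43.8 ± 8.10 to 165 ± 23.5 in root and from 233 ± 52.0 to 1244 ± 121 in shoot, with a difference of log2 -0.49 (adjusted p = 0.881). CDF3, a DOF factor of the photoperiod pathway, rose by log2 1.80 in root and 1.72 in shoot (difference 0.08, adjusted p = 1). OZF2, a tandem zinc-finger protein of stress responses, rose by log2 1.47 and 2.52 (difference -1.04, adjusted p = 0.116). NRT1.1, the dual-affinity nitrate transporter, fell in both, from 252 ± 101 to 123 ± 27.7 and from 222 ± 31.2 to 119.6 ± 6.77 (difference -0.14, adjusted p = 0.989). A difference that misses the threshold does not show equal responses, and these examples were picked after their values were seen.

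Several processes in the lists held no listed gene whose response was called as different. Among them were 41 photosynthesis genes (median 0.49, with 0 called in either organ), 19 aquaporins (-0.43), 15 auxin genes (0.24), 13 lipoxygenase and jasmonate synthesis genes (-0.22), 11 jasmonate response genes (-0.01), 10 ethylene genes (-0.18), 10 antioxidant and oxidase genes (-0.28) and 8 WRKY factors (0.15). Medians of this size are loose, and 13 of the 33 list medians, most of them of lists without a call, changed sign under some alternative. No call was made either for 9 endodermis and suberin genes (-0.08), 8 nitrate genes (-0.27), 7 heat shock genes (0.28), 7 cuticular wax genes (0.29), 5 ER body genes (0.17), 2 touch genes (0.26) and 2 cytokinin response regulators (-0.18). A list without a call does not cover its whole process: the auxin list leaves out YUC5 and MYB77, both called higher. The MYB77 call was lost in 12 of 23 alternatives. PYK10, an ER body beta-glucosidase, gave difference log2 0.97, SE 0.70, adjusted p = 0.886. The 6 lipoxygenases, whose symbol the line's name holds, were tested one by one: LOX1, LOX3, LOX4, LOX5 and LOX6 had differences from -0.22 to 0.88, with adjusted p of 0.844 or above. LOX2, the chloroplast lipoxygenase of jasmonate synthesis, had a count in 1 of the 6 root libraries, so no root change can be given, and stood at 138, 131 and 113 in water and 159, 138 and 162 in PEG in shoot. Root hair genes cannot be compared between organs, since 5 of the 8 tested had 3 counts or fewer in both shoot groups; in root they took 0.0214 to 0.0309% of counts in water and 0.00881 to 0.0130% in PEG. Over all 33 lists 338 of 419 genes were tested and 28 were called, against 132 of 10967 (1.2%) over all genes tested. The lists were written with earlier results of these data known, so the higher share in them is no test.

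The 1 h and 3 h PEG groups share their water libraries with the 2 h comparison and so do not test it again, but they show how levels ran. For RD29A the difference was log2 -1.50 at 1 h (adjusted p = 0.0989), -2.68 at 2 h and -4.20 at 3 h, as the shoot level went from 868 ± 129 to 1465 ± 57.5 and 3021 ± 411 and the root level from 142 ± 80.1 to 106 ± 32.0 and 76.0 ± 13.2. ERF53 stood in shoot at 50.8 ± 12.1, 64.3 ± 6.65 and 186 ± 6.63, and below 1 CPM on average in root at each PEG time. FKF1 stood in shoot at 122 ± 14.7 at 1 h, 173 ± 22.1 at 2 h and 203 ± 4.83 at 3 h, with differences of -3.69, -4.07 and -3.78. PYL6 had no call at 1 h (0.77, adjusted p = 0.333), with 1.85 at 2 h and 3.11 at 3 h. EXO and ABI1 were near their 2 h values from the first hour, with differences of 2.01, 1.97 and 2.47 for EXO and -2.27, -2.18 and -2.85 for ABI1. HRA1 had 2.25, 3.45 and 2.66, and its root level was highest at 2 h.

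**Figure D5:**
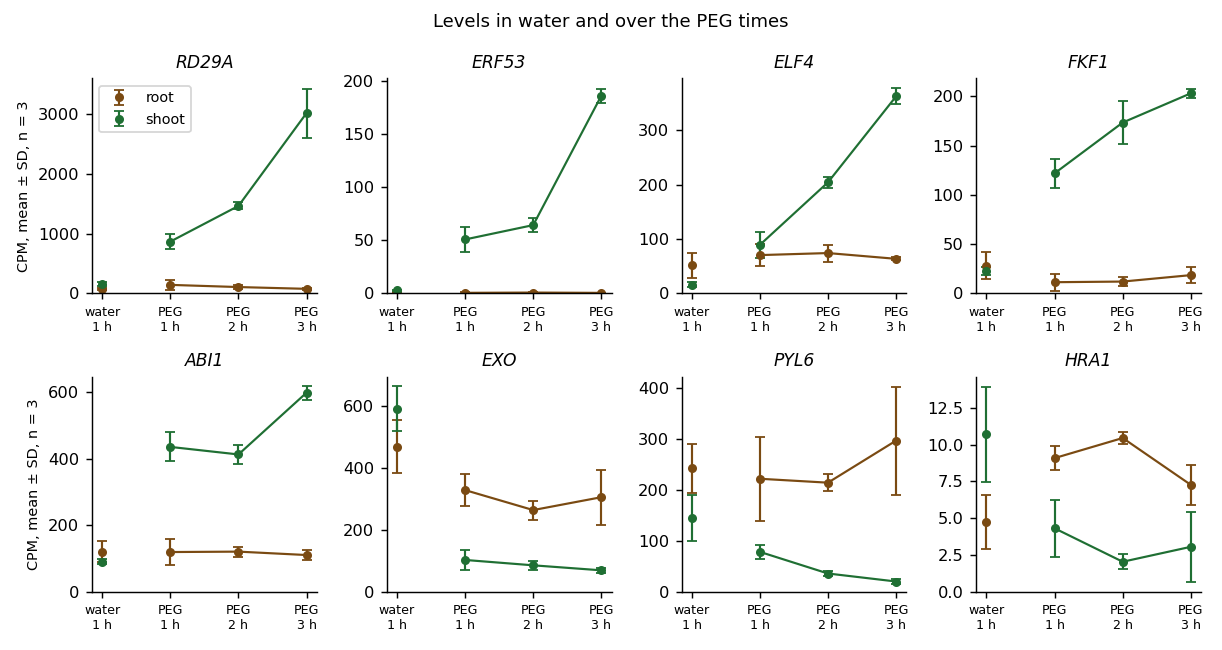
Mean level (CPM, error bars SD, n = 3) of 8 genes in root (brown) and shoot (green) in water and after 1, 2 and 3 h of PEG, with lines joining the PEG times. Shoot levels of RD29A, ERF53, ELF4, FKF1 and ABI1 stand above root levels at 2 and 3 h, and those of EXO, PYL6 and HRA1 below.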

How the data were processed

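Roots and shoots were profiled by MARS-seq, per the labels' protocols, in 24 libraries that source names put in 8 groups of 3. A tissue field, root throughout, was disregarded. Every test here started from the raw counts deposited by the authors. Its log2 fold changes and adjusted p-values, named so per the file headers, were used only for a check of sign, and 48 further columns of values were left aside. The authors' deposited table calls 129 genes in root and 462 in shoot at 2 h, at an absolute log2 of at least 1. Of these 128 and 458 were tested here, and all have the same direction once the sign of the deposited log2 values, which is opposite to PEG minus water in the raw counts, is turned. Both start from the same counts, so this is no independent support. Tools named in the submitters' processing notes, without order, are STAR 2.4.2a, HTSeq, DESeq2, cutadapt and bcl2fastq. Build, annotation, strand and treatment of molecular identifiers, each not given in the sources used here, stay unknown, so no positions or sequences are printed. Names come from a TAIR10.1 gene table that matched 14457 codes and missed 100.

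With R 4.3.3, edgeR 4.0.16, limma 3.58.1 and DESeq2 1.42.0, all 24 libraries were filtered (filterByExpr), scaled by TMM and fitted with robust quasi-likelihood over 8 groups (16 residual degrees of freedom, 10967 genes). Tests were two-sided with Benjamini-Hochberg adjustment over all genes tested in a contrast. The procedure was tested on simulated data with the same spread in all libraries and with changes in root PEG alone, in abundant genes. That simulation does not cover the unequal spread of root and shoot, changes in shoot or genes with few counts. Replicates are biological per the labels' protocols. No 2 replicates were alike within counting noise, so none was deposited more than once. Members, lists and tests were chosen with earlier results of these data known. The naming rule took the 10 largest called differences in each direction that had 20 or more counts on average and 5 CPM or more in each organ, genes called in opposite directions in the 2 organs, 3 per direction under 5 CPM in 1 organ, the 2 smallest p-values of each list, and lipoxygenase and organ marker genes. Other examples were chosen with their values in view. Alternatives changed the scaling, test, filter, libraries and block.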

Additional observations from a re-analysis of the deposited data

Results flagged for a closer look

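The response to 2 h of PEG differed between root and shoot, by a test of the difference itself, in 132 genes, of which 27 had the higher change in root and 105 the lower. AT4G18650 stood out because it was called in opposite directions in root and shoot, with a log2 difference of -9.04, and it rests on 1 count in root after PEG and 2 in shoot in water, so the fitted value is no bound.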

How the results depend on the processing

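Without 1 library the difference was called for 64 to 121 genes, 10 to 37 higher and 51 to 100 lower, the root response for 37 to 117 (27 to 67 up and 6 to 50 down) and the shoot response for 349 to 641 (267 to 445 up and 67 to 196 down). These fits also tested more genes, as the filter's smallest group falls to 2. The 12 libraries fitted alone gave 77 differences, 14 higher and 63 lower. In root, DESeq2's Wald test called 177 genes (90 up, 87 down), voom with group weights 28 (10 up, 18 down) and library totals 100 up and 28 down; downward calls were 28 with no filter and 28 with a mean CPM of at least 5 in each organ. Without root water B and root PEG 2 h A root had 57 calls, 19 of them down. In shoot, voom called 984 (628 up, 356 down). The causes were not tested. The other counts stayed within 1.5 times of the reported ones. No called difference changed sign under any alternative, 46 of 132 kept their call under all, and 54 under all that leave no single library out. Of 33 list medians 13 changed sign under some alternative, 2 of them under another scaling.

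Libraries of the same replicate letter mostly did not run together: of 18 same-letter pairs 2 correlated over 0.1 (range -0.63 to 0.66). Of 12 libraries 3 matched best with their own letter. Deviations from means of 3 libraries cannot decide whether root and shoot of 1 letter came from the same seedlings. With the replicate block 122 differences were called, and with the block within organ 114, of which 17 were higher. With the block by treatment and letter, which would hold if root and shoot of 1 letter came from the same seedlings, 64 were called, 11 higher and 53 lower. Precision was limited: over all genes tested the median standard error of a difference was 0.56 on the log2 scale, and the smallest called difference was 1.03.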

Other observations

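Beyond the genes already described, the 105 lower genes held several pairs of relatives. CYP89A5 and CYP89A2, cytochrome P450 genes of 1 subfamily, both had the lower change in root. So did AT1G20030 and AT4G36010, both of the thaumatin superfamily, and AT4G16490 and AT3G01400, both of the ARM repeat superfamily. Regulators among them included CEJ1 and DEAR2, repressors of the DREB group, RAP2.9, AFP3, of a family that binds the abscisic acid factor ABI5, and RGL3, a DELLA repressor of gibberellin responses. On the other side BME3, a GATA factor, HAT1, an HD-Zip factor, and MYB77, of auxin responses, fell in shoot with no call in root. Calls were lost in 10 of 23 alternatives for AT1G20030, 18 for AT4G36010, 11 for AT4G16490, 16 for AT3G01400, 14 for RGL3, 12 for MYB77, 11 for HAT1 and 9 for BME3, and in at most 3 for the others. All were picked after their values were seen, and no enrichment was tested.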
